A study of Homo sapiens with 12 samples.

Results

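The genes described here are the transcriptional co-activators YAP1 and WWTR1 (which encodes TAZ), their DNA-binding partners TEAD1 and TEAD4, and 6 genes tied to the pathway, CCN1, CCN2, ANKRD1, AMOTL2, LATS2 and AJUBA. These 10 genes were chosen by symbol, and each was matched to a single Ensembl identifier among the 58051 genes counted in every library. RNA with poly(A) selection was sequenced from 2 head and neck squamous cell carcinoma lines, FaDu from a tumor of the hypopharynx and Cal27 from a tumor of the tongue. For each line there were parental cells, afatinib-resistant cells (AfaR) and erlotinib-resistant cells (ErlR), with 2 biological replicates for each of the 6 groups and 12 libraries in all. All groups carry the genotype label WT. Afatinib blocks the ERBB receptor family and erlotinib blocks EGFR. Each resistant model is 1 population, derived from its parental line by growth in rising drug doses. By the paper's methods its stocks were kept in drug, which was withdrawn only a short time before experiments. Resistance and recent drug exposure therefore cannot be told apart. FaDu was grown in EMEM and Cal27 in DMEM, and medium and line cannot be told apart.

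YAP and TAZ do not bind DNA themselves. When the Hippo kinases, MST (encoded by STK3 and STK4) and LATS, are active, they phosphorylate YAP and TAZ, which are then held in the cytoplasm or degraded, and when the kinases are quiet YAP and TAZ enter the nucleus, join TEAD factors and switch on genes for matrix signals, growth and survival. Part of the control is on the proteins, which mRNA levels do not show. CCN1, CCN2 and ANKRD1 are widely used as readouts of YAP and TAZ activity, while AMOTL2 and LATS2 are targets that in turn restrain the co-activators. AJUBA encodes a LIM-domain adaptor that can bind and hold back LATS kinases.

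The stretch just before the transcription start is shown for 4 of these genes, because TEAD factors recognise the 6-base core GGAATG and the targets differ in how many copies they carry there. The sequences are from RefSeq on GRCh38.p14, run 5′ to 3′ along each gene's own strand and cover the 250 bases that end at the start site. Capitals mark GGAATG or, for a match on the other strand, CATTCC. WWTR1, the gene whose mRNA rose in each resistant model, is shown for contrast with an entry that holds no match.
CCN2, chr6:131951373-131951622, minus strand: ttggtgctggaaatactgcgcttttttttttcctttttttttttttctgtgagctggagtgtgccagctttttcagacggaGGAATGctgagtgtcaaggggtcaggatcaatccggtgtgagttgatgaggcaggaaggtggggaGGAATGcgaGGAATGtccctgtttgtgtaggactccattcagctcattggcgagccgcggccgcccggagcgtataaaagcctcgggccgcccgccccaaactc
ANKRD1, chr10:90921088-90921337, minus strand: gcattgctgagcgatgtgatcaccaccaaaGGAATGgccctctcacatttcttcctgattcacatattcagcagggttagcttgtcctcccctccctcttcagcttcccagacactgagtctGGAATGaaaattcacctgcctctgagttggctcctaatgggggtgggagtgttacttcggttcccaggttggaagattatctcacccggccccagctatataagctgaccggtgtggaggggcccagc
AMOTL2, chr3:134374448-134374697, minus strand: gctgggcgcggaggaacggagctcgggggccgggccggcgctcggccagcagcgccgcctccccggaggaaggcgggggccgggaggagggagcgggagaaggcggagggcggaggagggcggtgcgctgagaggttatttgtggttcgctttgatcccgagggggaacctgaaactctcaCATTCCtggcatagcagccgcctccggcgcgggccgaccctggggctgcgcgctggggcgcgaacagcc
WWTR1, chr3:149658026-149658275, minus strand: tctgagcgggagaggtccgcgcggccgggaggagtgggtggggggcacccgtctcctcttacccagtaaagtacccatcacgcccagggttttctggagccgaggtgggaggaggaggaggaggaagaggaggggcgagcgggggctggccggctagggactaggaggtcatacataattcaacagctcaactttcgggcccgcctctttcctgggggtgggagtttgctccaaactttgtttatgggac

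The CCN2 promoter held 3 copies of the core on its own strand, the nearest from base -95 to base -90, where -1 is the base before the start, and only 0.0826% of 35116 promoters of the same length held 3 or more. ANKRD1 held 2 copies, as did 0.94% of promoters when those with 2 or more are counted, and it also held 1 match to the AP-1 motif TGANTCA, which 6.57% of promoters hold. No match of TGANTCA overlapped a copy of the core there. Promoter entries were found for 7 of the 10 genes, YAP1, WWTR1, CCN2, ANKRD1, AMOTL2, LATS2 and AJUBA, with 10 entries in all. At least 1 match on either strand was present in 5 of the 7 genes, since YAP1 and 1 entry each of AMOTL2 and AJUBA held 1. Counted per entry, 5 of the 10 held a match, against 11.9% of all promoters, which were also counted per entry. No match was found in the entries of WWTR1 and LATS2, which says only that these letters are not in these windows. A match is a description of sequence and not evidence of binding.

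Library depth ran from 16334937 to 23399259 reads assigned to genes. Levels are given as CPM, the reads of a gene scaled to library size, with TMM normalization over the 12 libraries. All 6 squamous epithelial markers checked (KRT5, KRT14, KRT17, TP63, CDH1 and EPCAM) had a mean of at least 1 CPM in every group. In Cal27 AfaR their summed level was 763 and 870 CPM in the replicates, against 3483 to 4316 CPM in Cal27 parental cells. The summed level of 8 fibroblast markers moved the other way there, from 30.2 to 41.7 CPM in parental cells to 314 to 326 CPM in AfaR cells, of which COL1A1 made up 269 CPM on average. LUM and PDGFRB rose there too (adjusted p = 8e-06 and 0.000639 by edgeR). COL3A1, DCN, PDGFRA and THY1 had means under 1 CPM in both groups. Both shifts accompany every Cal27 AfaR result given here. In Cal27 ErlR the fibroblast sum was 5.36 and 10.6 CPM and 3 of the 5 fibroblast markers tested fell (COL1A1, COL1A2 and PDGFRB). The squamous sum there was 3970 to 4132 CPM, with KRT14, KRT17 and CDH1 lower and TP63 higher, and the endothelial marker CDH5 fell from 30.3 and 30.7 CPM to 1.09 and 4.15 CPM. The part of these markers in the Cal27 results was not tested. In bulk RNA, fewer cells of a type and less RNA per cell cannot be told apart. Leukocyte and endothelial markers summed to between 2.91 and 6.12 CPM and between 2.49 and 37.3 CPM, and CD3E was at 0 in 5 of the 6 groups.

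The resistant cells were set against their own parental line by edgeR's quasi-likelihood test, and a gene was called at an adjusted p-value under 0.05 (Benjamini-Hochberg, over all genes tested, no limit on the fold change). The AfaR and ErlR comparisons of a line share their parental libraries. In FaDu AfaR, WWTR1, TEAD1 and CCN1 rose and YAP1 fell, 4 of the 9 genes tested, where 17.9% of all genes tested were called (10.4% higher and 7.49% lower). In FaDu ErlR, WWTR1 and TEAD1 rose, 2 of 9 genes tested against 4.18% of all genes (2.58% higher and 1.6% lower). In Cal27 AfaR, WWTR1, CCN1 and AMOTL2 rose and TEAD4 fell, 4 of 10 genes tested where 37.6% of all genes were called (19.5% higher and 18.2% lower). In Cal27 ErlR, WWTR1 and AMOTL2 rose and ANKRD1 fell, 3 of 10 genes tested against 27.6% of all genes (12.3% higher and 15.3% lower). The share called in the Cal27 models was near that of all genes. WWTR1 rose in all 4 models. CCN2, LATS2 and AJUBA were called in none of the 4 by edgeR, although each had 1 comparison of the 4 at an unadjusted p under 0.05 (in FaDu ErlR, where 21.2% of all genes passed that limit, or in Cal27 ErlR, where 40.2% did), and DESeq2 called CCN2 in FaDu ErlR and AJUBA in Cal27 ErlR. ANKRD1 had too few counts to be tested in FaDu. With a further limit of 1 on the size of the log2 fold change, 0 of the genes remained in FaDu AfaR (7.43% of all genes), 1 in FaDu ErlR (WWTR1, against 2.05%), 0 in Cal27 AfaR (19.6%) and 1 in Cal27 ErlR (ANKRD1, against 13.5%).

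**Figure D1:**
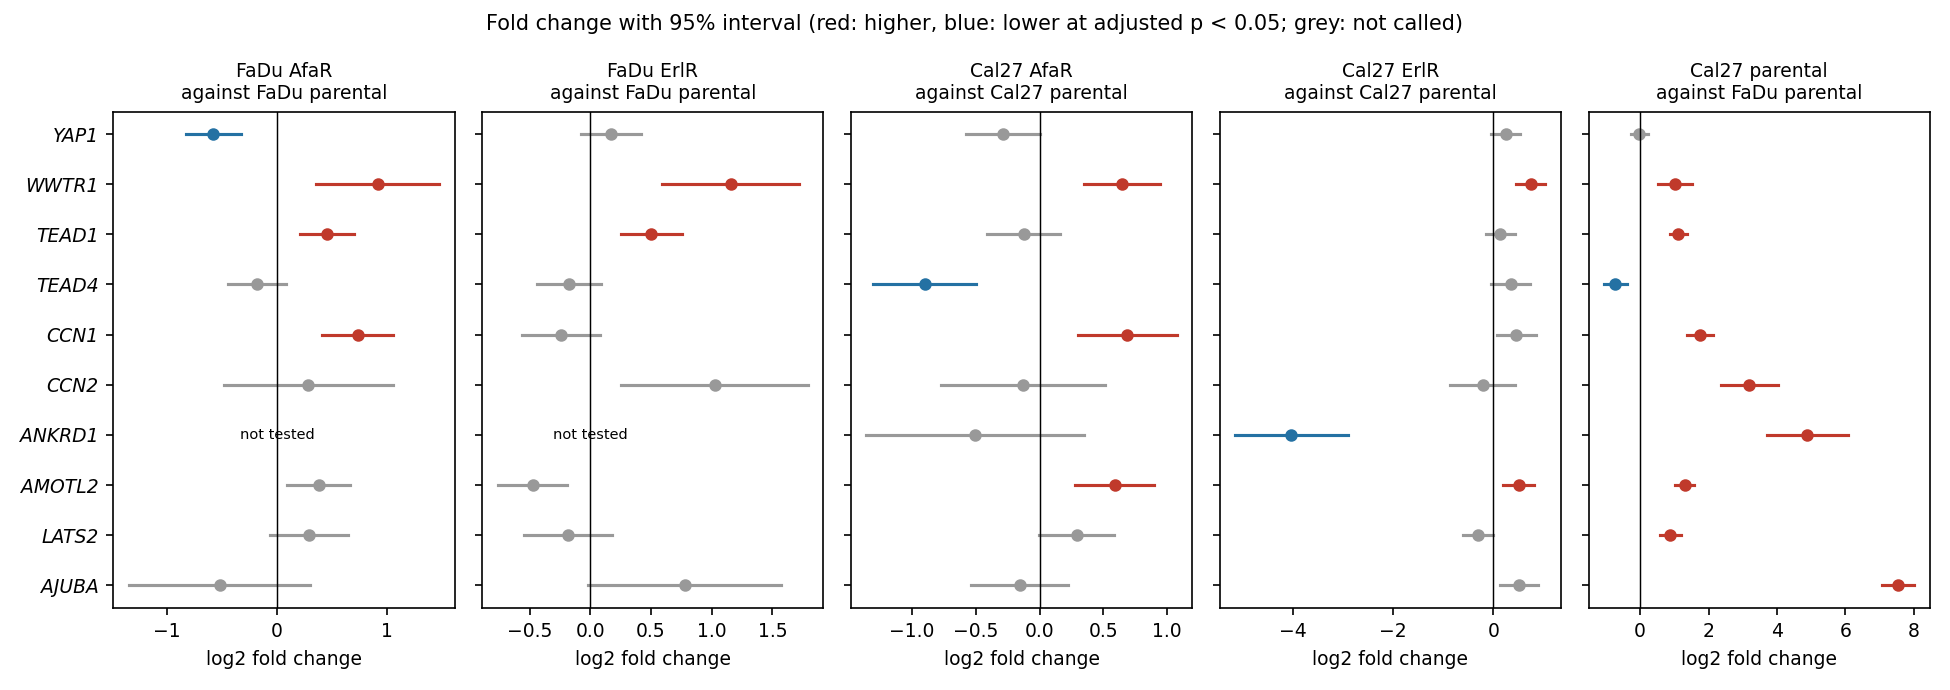
Log2 fold change of each gene (point) with its 95% confidence interval (line) in the 4 comparisons with parental cells and in Cal27 parental against FaDu parental cells, each panel on its own scale. WWTR1 is higher in every panel, from 0.65 to 1.16 in the resistant models, and ANKRD1 in Cal27 ErlR (-4.03) is the only value beyond 2 in size outside the comparison of the parental lines.

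WWTR1 (ENSG00000018408, GRCh38 chromosome 3, 149517235 to 149736714, minus strand) stood at 56.8 and 55.8 CPM in the replicates of FaDu parental cells. In FaDu AfaR it reached 109 and 107 CPM. In FaDu ErlR it stood at 85.2 and 168 CPM. Both resistant FaDu models lay above the parental libraries, but the ErlR replicates differed from each other by more than the group means did. On the log2 scale it rose by 0.92 (standard error 0.25, adjusted p = 0.035 by edgeR) in AfaR and 1.16 (standard error 0.25, adjusted p = 0.0385 by edgeR) in ErlR. The ErlR value was not called without FaDu ErlR replicate 2 (0.59), without FaDu parental replicate 1 (1.17) or 2 (1.14), or with a replicate block (1.11, adjusted p = 0.0513). In Cal27, WWTR1 stood at 118 and 111 CPM in parental cells, 182 and 177 CPM in AfaR and 213 and 178 CPM in ErlR, and the groups did not overlap with the parental libraries. Its log2 fold changes were 0.65 (standard error 0.13, adjusted p = 0.00446 by edgeR) in Cal27 AfaR and 0.75 (standard error 0.13, adjusted p = 0.00363 by edgeR) in Cal27 ErlR. Leaving out any 1 Cal27 library kept both calls, while in FaDu AfaR the call was lost whichever of the 4 libraries was left out, with values between 0.89 and 0.94 and an adjusted p between 0.0869 and 0.173.

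YAP1 (ENSG00000137693, chromosome 11, 102110461 to 102233423, plus strand) went the other way in FaDu AfaR. Parental FaDu libraries held 197 and 212 CPM, FaDu AfaR 137 and 140 CPM and FaDu ErlR 214 and 249 CPM. The AfaR libraries were the lowest of the 12. In FaDu AfaR the change was -0.58 on the log2 scale (standard error 0.11, adjusted p = 0.0114 by edgeR), and with the ERCC spike-ins as the scale it was -0.40 with an adjusted p of 0.0695. Leaving out either FaDu parental library gave -0.64 and -0.53, neither of them called. In Cal27 parental cells YAP1 stood at 194 and 207 CPM, in AfaR at 176 and 152 CPM and in ErlR at 247 and 240 CPM. The Cal27 changes were smaller and were not called, with log2 fold changes of -0.29 (95% interval -0.58 to 0.0019, adjusted p = 0.108) and 0.25 (95% interval -0.04 to 0.54, adjusted p = 0.174) by edgeR. Over all 12 libraries YAP1 varied 1.82-fold from lowest to highest, the narrowest range of the 10 genes.

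The log2 fold change of WWTR1 exceeded that of YAP1 in each of the 4 models, so the balance of their mRNAs shifted. Per kilobase of exon, which allows genes of different length to be compared, YAP1 exceeded WWTR1 4.64-fold and 5.07-fold in the FaDu parental libraries. The ratio was 1.68 and 1.75 in FaDu AfaR and 3.36 and 1.98 in FaDu ErlR. In Cal27 it was 2.20 and 2.49 in parental cells, 1.29 and 1.15 in AfaR and 1.55 and 1.80 in ErlR. In each line both resistant models lay below both parental libraries. Per kilobase of the exonic length in the files, YAP1 remained the higher of the pair in all 12 libraries. In CPM, WWTR1 was the higher in Cal27 AfaR (182 and 177 CPM against 176 and 152 CPM), so the order there depends on the length used.

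**Figure D2:**
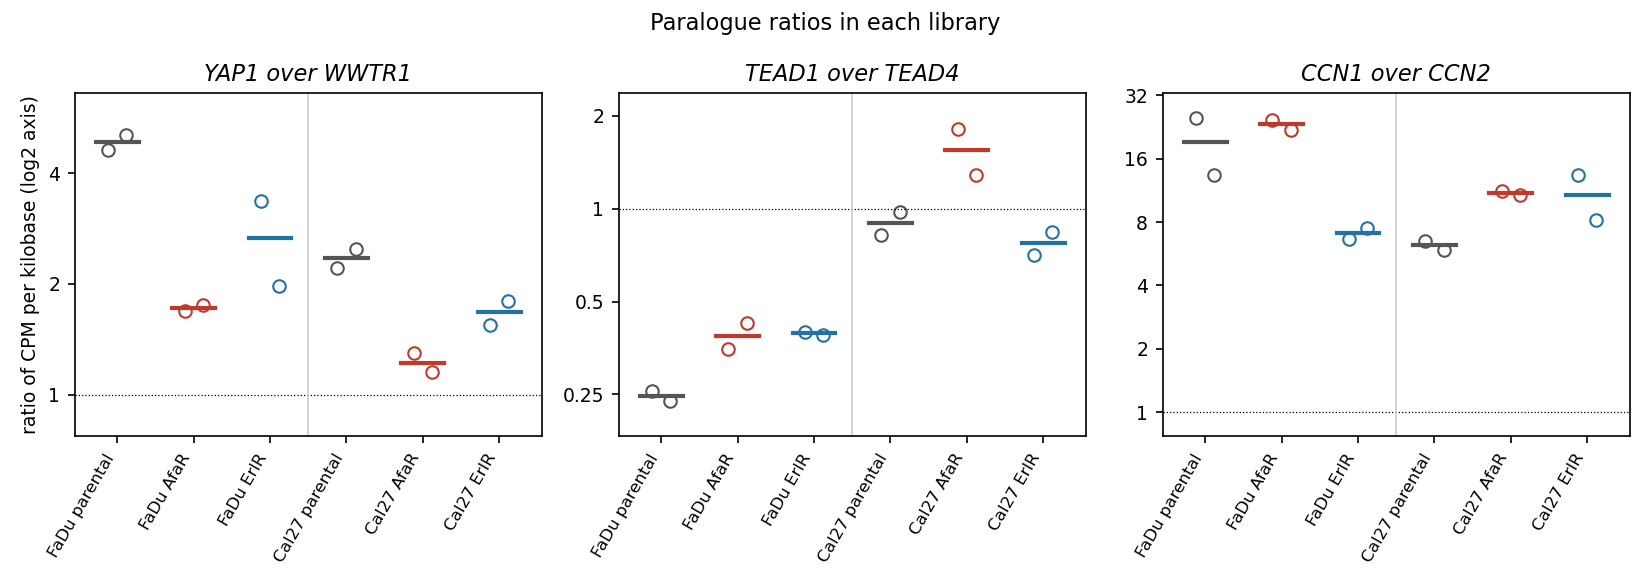
Ratio of CPM per kilobase of exon for 3 pairs of related genes, with 1 open circle per library and a bar at the group mean (log2 axis, dotted line at 1). The YAP1 over WWTR1 ratio falls from 4.86 in FaDu parental to 1.72 in FaDu AfaR cells and from 2.35 in Cal27 parental to 1.22 in Cal27 AfaR cells, and TEAD1 over TEAD4 exceeds 1 in the Cal27 AfaR libraries.

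The TEAD partners changed in different models. TEAD1 (ENSG00000187079, chromosome 11, 12674591 to 12944483, plus strand) stood at 80.3 and 75.1 CPM in FaDu parental cells, 104 and 112 CPM in AfaR and 117 and 105 CPM in ErlR. Neither resistant FaDu group overlapped the parental libraries, and the 2 resistant groups overlapped each other. The log2 fold changes were 0.46 (standard error 0.11, adjusted p = 0.0243 by edgeR) and 0.50 (standard error 0.11, adjusted p = 0.0404 by edgeR). Without FaDu parental replicate 1 or 2 or FaDu AfaR replicate 2, the AfaR value (0.41 to 0.50) was not called, and the ErlR value (0.43 to 0.58) was not called when any 1 of the 4 libraries was left out. In Cal27 the levels were 177 and 160 CPM in parental cells, 163 and 147 CPM in AfaR and 182 and 197 CPM in ErlR. TEAD1 was not called in either Cal27 model, with values of -0.12 (95% interval -0.41 to 0.16) and 0.14 (95% interval -0.15 to 0.43).

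TEAD4 (ENSG00000197905, chromosome 12, 2959330 to 3040673, plus strand) fell in Cal27 AfaR. It stood at 47.8 and 36.4 CPM in Cal27 parental cells and at 19.8 and 25.2 CPM in AfaR cells, with 56.9 and 51.8 CPM in ErlR cells. The 3 Cal27 groups did not overlap, AfaR being the lowest and ErlR the highest. On the log2 scale the AfaR change was -0.90 (standard error 0.18, adjusted p = 0.00399 by edgeR), and it stayed between -1.08 and -0.69 and called with any 1 library left out. In ErlR it was 0.34 (95% interval -0.05 to 0.74, adjusted p = 0.172 by edgeR). In FaDu, TEAD4 stood at 69.0 and 69.9 CPM in parental cells, 65.7 and 58.2 CPM in AfaR and 64.6 and 59.7 CPM in ErlR, and it was not called in either model (-0.18 and -0.17). The ratio of TEAD1 to TEAD4 per kilobase was 1.82 and 1.29 in Cal27 AfaR, against 0.82 and 0.98 in Cal27 parental cells and 0.257 and 0.238 in FaDu parental cells.

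CCN1 (ENSG00000142871, chromosome 1, 85580761 to 85583962, plus strand), which encodes the secreted matrix protein CYR61, was the most abundant of the 10 genes per kilobase in all 6 groups. FaDu parental libraries held 181 and 229 CPM, FaDu AfaR 319 and 374 CPM and FaDu ErlR 188 and 162 CPM. The AfaR libraries lay above all other FaDu libraries, and ErlR overlapped the parental cells. CCN1 rose by 0.74 on the log2 scale (standard error 0.14, adjusted p = 0.0124 by edgeR) in FaDu AfaR and was at -0.24 (95% interval -0.57 to 0.08) in FaDu ErlR. In Cal27 the levels were 679 and 699 CPM in parental cells, 949 and 1269 CPM in AfaR and 862 and 1067 CPM in ErlR. Both resistant models lay above the parental libraries and overlapped each other. On the log2 scale the AfaR rise was 0.69 (standard error 0.17, adjusted p = 0.0122 by edgeR) and that in ErlR, 0.46 (standard error 0.17, adjusted p = 0.0757), missed the threshold. The FaDu AfaR call was lost without FaDu parental replicate 1 (0.57) or AfaR replicate 2 (0.62), and the Cal27 AfaR call without AfaR replicate 2 (0.48).

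CCN2 (ENSG00000118523, chromosome 6, 131948176 to 131951373, minus strand), which encodes connective tissue growth factor, did not follow CCN1. Its replicates were spread widely, with 6.89 and 16.4 CPM in FaDu parental cells, 12.4 and 16.2 CPM in FaDu AfaR and 26.9 and 20.6 CPM in FaDu ErlR. The FaDu ErlR libraries were the highest of the line. The log2 fold change in FaDu ErlR was 1.02 (95% interval 0.25 to 1.79, adjusted p = 0.125 by edgeR), and it was called with DESeq2 (1.03), with ERCC scaling (1.53) and with no filter (1.01). It was 0.52 without FaDu parental replicate 1 and 1.77, then called, without FaDu parental replicate 2. In Cal27, CCN2 stood at 98.9 and 113 CPM in parental cells, 80.8 and 113 CPM in AfaR and 61.3 and 125 CPM in ErlR, all overlapping. Without Cal27 ErlR replicate 2 the ErlR value was -0.79 and was called (adjusted p = 0.0273 by edgeR), and without ErlR replicate 1 it was 0.22. The ratio of CCN1 to CCN2 per kilobase was 25.03 and 13.4 in FaDu parental cells and 6.67 and 7.46 in FaDu ErlR, whereas in Cal27 it was 6.53 and 5.88 in parental cells, 11.2 and 10.7 in AfaR and 13.4 and 8.15 in ErlR.

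ANKRD1 (ENSG00000148677, chromosome 10, 90912096 to 90921276, minus strand), which encodes a nuclear ankyrin-repeat protein, showed the largest change of the 10 genes in a resistant model. Cal27 parental libraries held 124 and 138 reads (7.22 and 8.04 CPM) and Cal27 ErlR libraries 5 and 10 reads (0.319 and 0.611 CPM). Cal27 AfaR lay at 62 and 128 reads (3.34 and 7.42 CPM), overlapping the parental cells. On the log2 scale the ErlR change was -4.03 (standard error 0.50, adjusted p = 0.000732 by edgeR), between -4.54 and -3.65 with any 1 library left out. In AfaR it was -0.51 (95% interval -1.36 to 0.35, adjusted p = 0.322 by edgeR). The FaDu libraries held between 3 and 9 reads each, from 0.146 to 0.436 CPM, so no change in FaDu was detectable at this depth. With 3 and 2 copies of GGAATG before their starts, CCN2 and ANKRD1 had the most matches of the genes with an entry. In Cal27 ErlR CCN2 was at -0.21 (95% interval -0.86 to 0.43), and between -0.79 and 0.22 with 1 library left out. Any link between copies of the core and these changes was not tested.

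**Figure D3:**
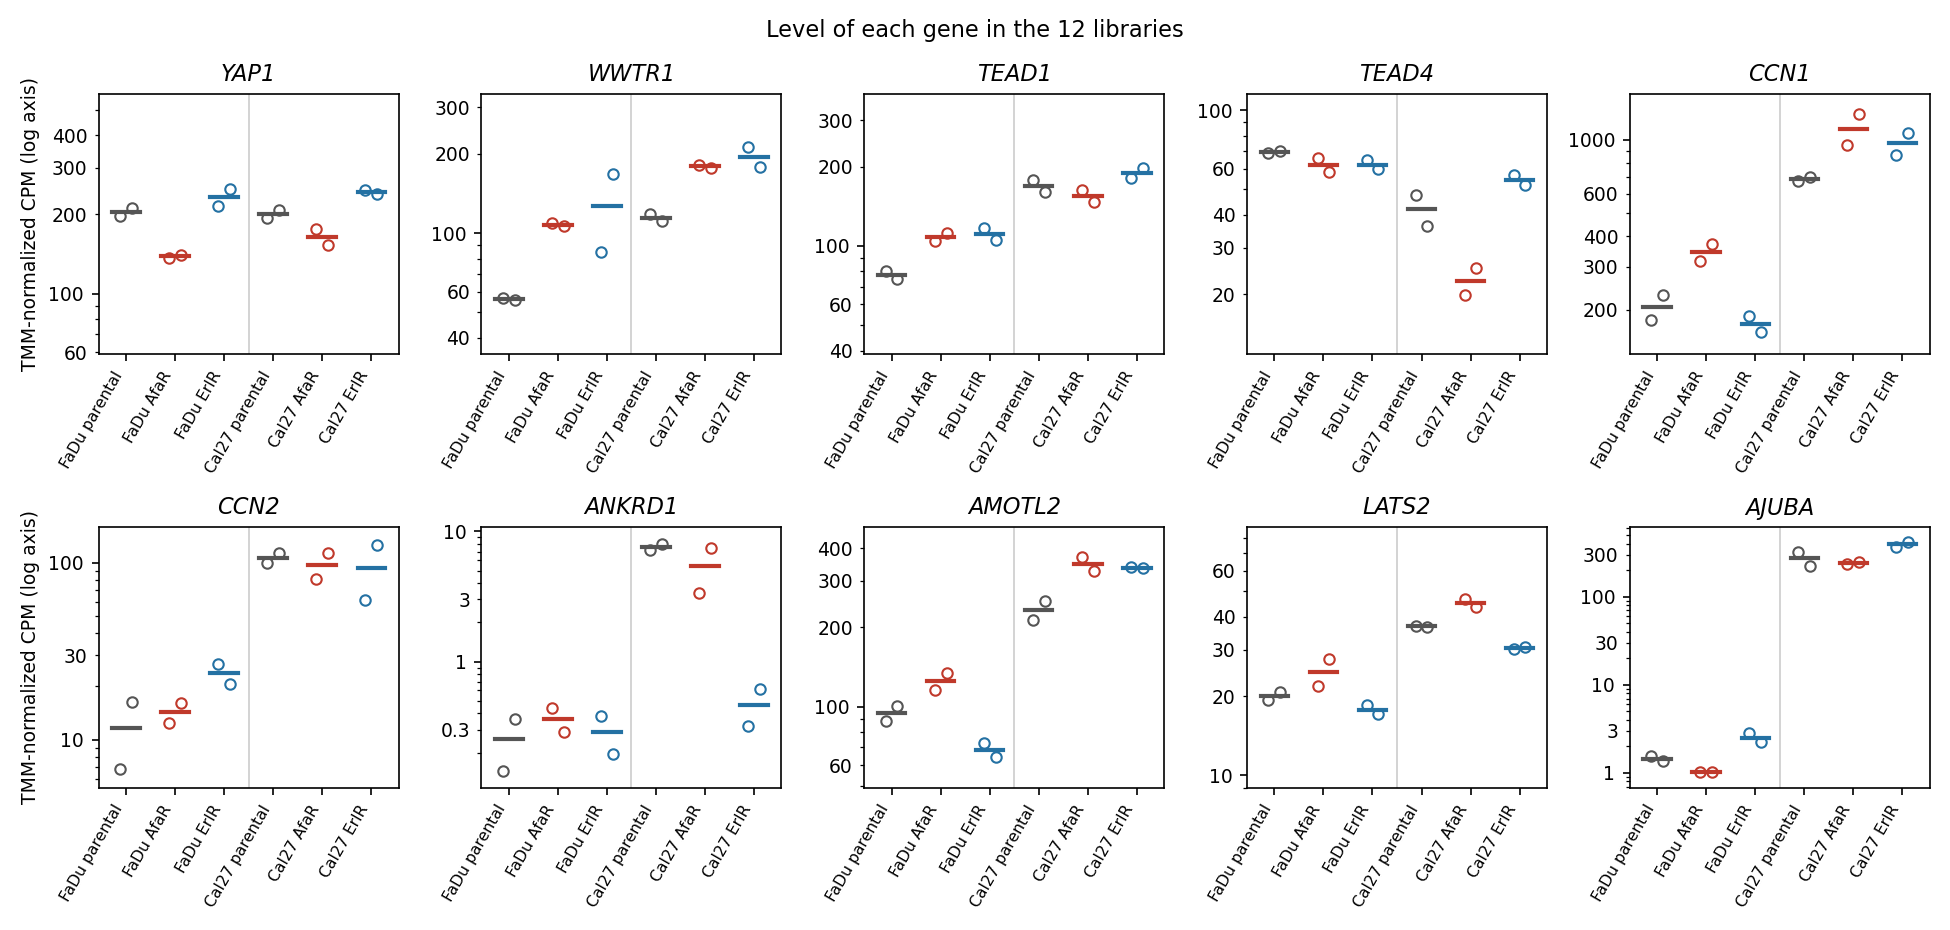
TMM-normalized CPM of each gene in the 12 libraries (log axis, each panel on its own scale of at least 8-fold), with 1 open circle per library and a bar at the group mean for parental (grey), AfaR (red) and ErlR (blue) cells. ANKRD1 drops to 0.465 CPM in Cal27 ErlR, near its FaDu levels, and AJUBA reaches at most 2.81 CPM in a FaDu library and at least 225 CPM in a Cal27 library.

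The restraining targets were followed next. AMOTL2 (ENSG00000114019, chromosome 3, 134355874 to 134375479, minus strand), an angiomotin family scaffold that binds YAP, stood at 213 and 252 CPM in Cal27 parental cells, 371 and 327 CPM in AfaR and 338 and 335 CPM in ErlR. Both resistant Cal27 models lay above the parental libraries. The log2 fold changes were 0.59 (standard error 0.14, adjusted p = 0.00905 by edgeR) and 0.51 (standard error 0.14, adjusted p = 0.0247 by edgeR). The AfaR call was lost without Cal27 parental replicate 1 (0.47) or AfaR replicate 1 (0.49), and the ErlR call without Cal27 parental replicate 1 (0.41) or either ErlR library (0.51 and 0.55). In FaDu the levels were 88.2 and 101 CPM in parental cells, 116 and 134 CPM in AfaR and 72.8 and 64.4 CPM in ErlR, so that the resistant models lay on either side of the parental cells. Neither FaDu value was called, at 0.38 (adjusted p = 0.0655) and -0.48 (adjusted p = 0.0703) by edgeR. The AfaR value was called with ERCC scaling (0.56) and with no filter (0.39). The ErlR value was called with DESeq2 (-0.47) and with no filter (-0.49), and became 0.02 with ERCC scaling, which moved the median of all genes tested in FaDu ErlR to 0.49.

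LATS2 (ENSG00000150457, chromosome 13, 20973032 to 21061547, minus strand), a LATS kinase that phosphorylates YAP and TAZ, stood at 37.1 and 36.8 CPM in Cal27 parental cells. It stood at 46.7 and 43.6 CPM in Cal27 AfaR and 30.3 and 30.7 CPM in Cal27 ErlR. In FaDu it stood at 19.4 and 20.7 CPM in parental cells, 21.96 and 27.6 CPM in AfaR and 18.5 and 17.1 CPM in ErlR. In both lines the AfaR libraries were the highest and the ErlR libraries the lowest, without overlap. No comparison with parental cells was called, the log2 fold changes being 0.29 and -0.18 in FaDu and 0.29 and -0.30 in Cal27.

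AJUBA (ENSG00000129474, chromosome 14, 22971174 to 22982642, minus strand) was present at different orders of magnitude in the 2 lines. FaDu libraries held 1.55 and 1.35 CPM in parental cells, 1.02 and 1.03 CPM in AfaR and 2.81 and 2.22 CPM in ErlR, from 21 to 44 reads each. Cal27 libraries held 319 and 225 CPM in parental cells, 238 and 250 CPM in AfaR and 371 and 417 CPM in ErlR. The Cal27 ErlR libraries lay above the other Cal27 libraries, 0.51 higher than parental cells on the log2 scale (standard error 0.17, adjusted p = 0.0511 by edgeR). DESeq2, RLE or ERCC scaling, no filter, other libraries in the fit and leaving out Cal27 parental replicate 1 each called it, while without Cal27 parental replicate 2 it was 0.29. In FaDu ErlR it was 0.78 (95% interval -0.02 to 1.57, adjusted p = 0.244 by edgeR).

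The parental lines themselves were compared next. In Cal27 parental against FaDu parental cells, 9 of the 10 genes were called in a fit over all 12 libraries, where 55.6% of all genes tested were called, and 8 were higher in Cal27 and 1 lower, where 28.7% of all genes were higher and 26.8% lower. AJUBA showed the largest difference, 1.45 against 272 CPM on average, which is 7.54 on the log2 scale (standard error 0.22, adjusted p = 2.34e-10 by edgeR). ANKRD1 followed at 4.88 (standard error 0.55, adjusted p = 1.12e-05 by edgeR), from 10 reads over the 2 FaDu parental libraries. It passed the count filter of that fit through Cal27 alone. CCN2 was at 3.19 (standard error 0.39, adjusted p = 2.12e-05 by edgeR). CCN1 (1.75), AMOTL2 (1.297), TEAD1 (1.12), WWTR1 (1.02) and LATS2 (0.88) were higher in Cal27 as well, and TEAD4 was lower (-0.72, adjusted p = 0.00157). YAP1 was the one gene not called, at -0.03 (95% interval -0.27 to 0.22). With ERCC scaling, which moved the median of all genes tested from 0.04 to 0.62, YAP1 was at 0.56 (adjusted p = 0.00245) and TEAD4 at -0.15 (adjusted p = 0.483), so that relative to the median of all genes YAP1 stayed near 0 and TEAD4 stayed below it.

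Ordered by level per kilobase, the genes ranked differently in the 2 lines. In FaDu parental cells CCN1 (83.6 CPM per kilobase) was followed by YAP1 (32.5), TEAD4 (30.6), AMOTL2 (15.8), TEAD1 (7.56), WWTR1 (6.69), CCN2 (4.97), LATS2 (3.59), AJUBA (0.243) and ANKRD1 (0.129). WWTR1 and CCN2, and CCN2 and LATS2, overlapped between replicates. In Cal27 parental cells CCN1 (281) was followed by AJUBA (45.5), CCN2 (45.4), AMOTL2 (38.8), YAP1 (31.9), TEAD4 (18.5), TEAD1 (16.4), WWTR1 (13.6), LATS2 (6.62) and ANKRD1 (3.85). AJUBA and CCN2 overlapped there, as did TEAD4 and TEAD1.

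The 2 resistant models of a line were also compared directly. In FaDu AfaR against FaDu ErlR, 4 of 9 genes were called where 15.7% of all genes were. CCN1 (log2 fold change 0.98, adjusted p = 0.00463 by edgeR) and AMOTL2 (0.86, adjusted p = 0.00472) were higher in AfaR, and YAP1 (-0.75, adjusted p = 0.0046) and AJUBA (-1.301, adjusted p = 0.0403) were lower. In Cal27 AfaR against Cal27 ErlR, 5 of 10 genes were called where 49.6% of all genes were. ANKRD1 (3.53, adjusted p = 0.000454 by edgeR) and LATS2 (0.60, adjusted p = 0.00479) were higher in AfaR, and TEAD4 (-1.25, adjusted p = 0.000478), AJUBA (-0.66, adjusted p = 0.00962) and YAP1 (-0.54, adjusted p = 0.00702) were lower. With the limit of 1 on the fold change, 1 gene remained in FaDu (AJUBA, against 5.94% of all genes) and 2 in Cal27 (ANKRD1 and TEAD4, against 27.1%). YAP1 and AJUBA had lower levels in AfaR than in ErlR cells in both lines, and the calls for AJUBA were lost in FaDu with DESeq2 and whenever 1 of the compared libraries was left out. In Cal27 the YAP1 call was lost without AfaR replicate 2 (-0.44) and the AJUBA call without AfaR replicate 1 (-0.63).

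Whether a resistance effect differed between the lines was tested as an interaction. For the AfaR effect, 2 of 10 genes were called where 18.6% of all genes were, TEAD1 and TEAD4, both higher in FaDu relative to Cal27. For the ErlR effect, 2 of 10 genes were called, again where 18.6% of all genes were. These were ANKRD1, which fell in Cal27 ErlR and lay at 3 to 9 reads in FaDu, and AMOTL2. AMOTL2 rose in Cal27 ErlR and was at -0.48 in FaDu ErlR. ANKRD1 failed the count filter in FaDu and entered the fit of all libraries through Cal27 alone. Its term therefore cannot show how FaDu responded. Over 1 in size, 0 genes remained for AfaR (12.3% of all genes) and 1 for ErlR (ANKRD1, against 10.9%), and at an unadjusted p under 0.05 the ErlR effect gave 6 genes (33.1% of all genes). WWTR1 was not called in either interaction, with differences of 0.29 (95% interval -0.40 to 0.97) and 0.40 (95% interval -0.29 to 1.08), intervals that leave room for effects of unequal size.

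The other genes of the pathway are given as 4 lists written from general knowledge, and their counts are set beside those of all genes tested. Of 17 other genes of a published signature of YAP and TAZ targets, 8 rose and 2 fell in FaDu AfaR, where 10.4% of all genes were higher and 7.49% lower, with a median log2 fold change of 0.49. Part of these calls was lost without FaDu parental replicate 1 or 2 or FaDu AfaR replicate 2, fits in which fewer of all genes were called too. The median of all genes tested lay between -0.0275 and -9.47e-06 in the 4 resistant models. The largest changes in FaDu AfaR were in RBMS3 (3.21, from 7 and 9 reads in the FaDu parental libraries), TGFB2 (1.54), ARHGEF17 (1.13) and CRIM1 (1.06). The counts were also 8 and 2 in Cal27 AfaR, against 19.5% and 18.2% of all genes (median 0.35), led by RBMS3 (2.47), TGFB2 (2.16), IGFBP3 (-2.06) and CCDC80 (1.89). In FaDu ErlR 2 were higher and 1 lower, against 2.58% and 1.6% of all genes (median 0.14), and in Cal27 ErlR 3 were higher and 3 lower, against 12.3% and 15.3% (median 0.22). NT5E, which encodes the ecto-enzyme CD73, rose in both, by 2.49 and 2.33. IGFBP3 fell by 5.22 in Cal27 ErlR, although its Cal27 parental libraries held 2249 and 6712 CPM. In Cal27 parental against FaDu parental cells 12 of the 17 were higher and 0 were lower (edgeR, adjusted p), against 28.7% and 26.8% of all genes, with a median of 1.77 and IGFBP3 (7.27), TGFB2 (4.26), FJX1 (2.58) and RBMS3 (2.55) in front.

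Of 9 further reported targets, 2 rose in FaDu AfaR (THBS1 at 1.15 and ARHGAP29 at 0.60) and 0 fell by edgeR, against 10.4% and 7.49% of all genes, while 3 rose and 1 fell in FaDu ErlR, against 2.58% and 1.6%. In Cal27 AfaR 2 rose and 5 fell, against 19.5% and 18.2% of all genes, with a median of -0.64, and AREG (-2.67), INHBA (-2.43) and CAV1 (-1.59) were among those that fell. In Cal27 ErlR 4 rose and 2 fell, against 12.3% and 15.3%, and EDN1 was among those that fell (-2.72). AREG, which encodes an EGFR ligand, fell in Cal27 AfaR but rose in Cal27 ErlR (1.47). Between the parental lines 4 of the 9 were higher in Cal27 and 2 lower, against 28.7% and 26.8% of all genes, led by INHBA (9.76), EDN1 (7.22) and THBS1 (4.54). In the FaDu parental libraries INHBA held only 10 and 21 reads and EDN1 2 and 14.

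**Figure D4:**
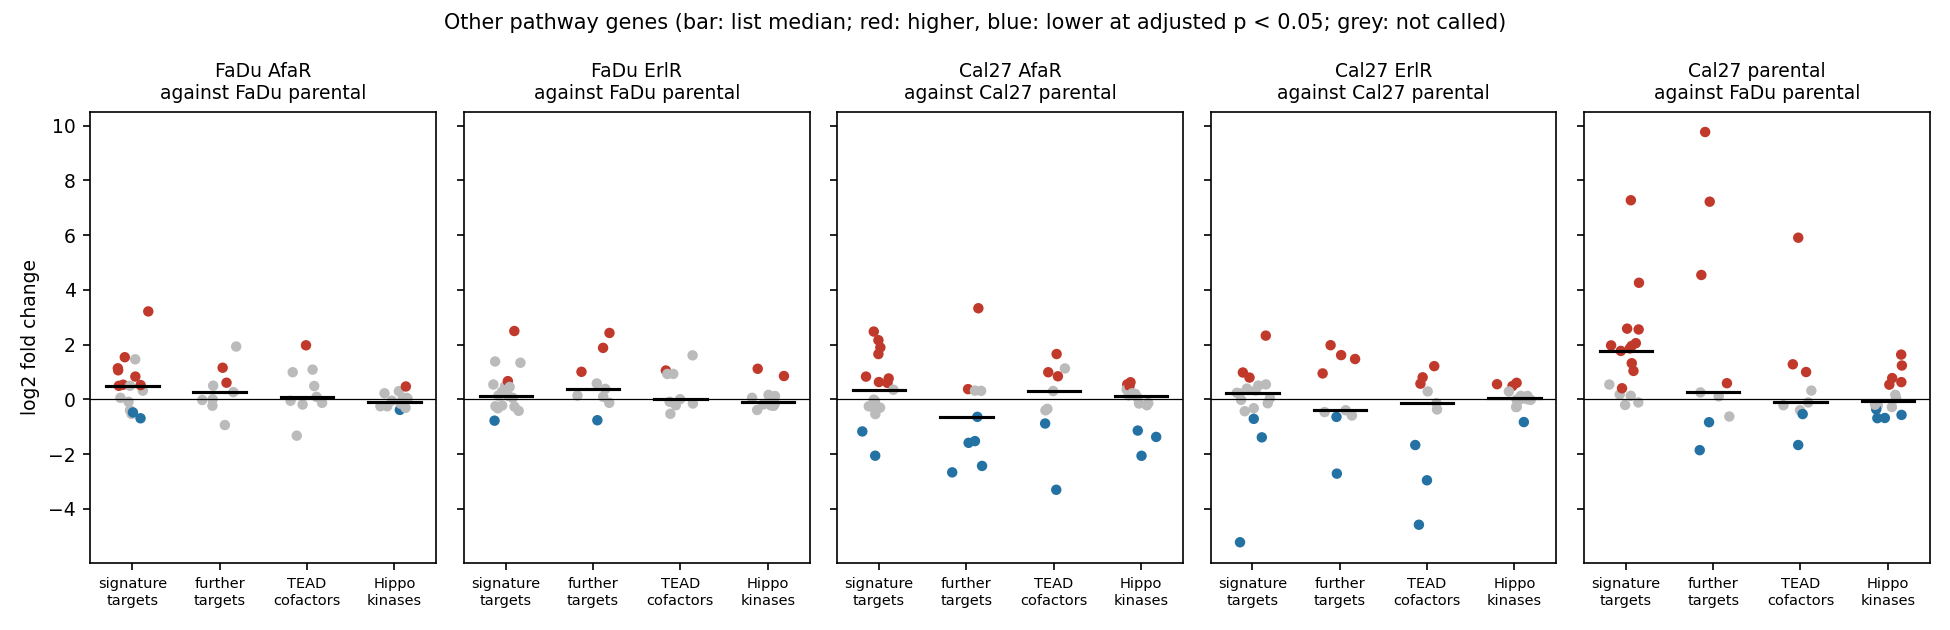
Log2 fold change of each gene in 4 pathway lists in the 4 comparisons with parental cells and between the parental lines, with 1 point per gene, spread sideways for legibility, and a black bar at the list median. The bar of the 17 signature targets lies at 0.49 in FaDu AfaR, 0.35 in Cal27 AfaR and 1.77 between the parental lines.

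Among 9 other TEADs, cofactors and LIM proteins, 1 rose and 0 fell in each FaDu model (edgeR, adjusted p), 3 rose and 2 fell in Cal27 AfaR, 3 rose and 3 fell in Cal27 ErlR, and 3 were higher and 2 lower in Cal27 than in FaDu parental cells. In all 1, 1, 5, 6 and 5 of the 9 were called in these comparisons, against 17.9%, 4.18%, 37.6%, 27.6% and 55.6% of all genes. VGLL1, a TEAD cofactor, fell in Cal27 AfaR (-3.31) and Cal27 ErlR (-2.96), and TEAD2 rose in both (0.99 in Cal27 AfaR). VGLL1 held only 30 and 29 reads in the Cal27 parental libraries, 5 and 1 in AfaR and 3 and 4 in ErlR. AMOTL1, the paralogue of AMOTL2, rose in FaDu ErlR (1.05) and Cal27 ErlR (1.21) and fell in Cal27 AfaR (-0.89). VGLL3 differed most between the parental lines (5.90, higher in Cal27), from 7 and 3 reads in the FaDu parental libraries. Among 14 Hippo kinases and regulators, 1 rose and 1 fell in FaDu AfaR, 2 rose and 0 fell in FaDu ErlR, 3 rose and 3 fell in Cal27 AfaR, 3 rose and 1 fell in Cal27 ErlR, and 5 were higher and 4 lower in Cal27 than in FaDu parental cells. The 6 of 14 called in Cal27 AfaR and the 4 of 14 in Cal27 ErlR were near the shares of all genes, 37.6% and 27.6%, and the 2 in each FaDu model stood against 17.9% in AfaR and 4.18% in ErlR. SAV1, the scaffold of the MST kinases, fell in FaDu AfaR (-0.39), Cal27 AfaR (-2.06) and Cal27 ErlR (-0.83). In Cal27 its level was 214 and 196 CPM in parental cells, 47.4 and 50.4 CPM in AfaR and 128 and 106 CPM in ErlR, without overlap. The kinase genes TAOK3 (-1.38) and STK3 (-1.14) also fell in Cal27 AfaR, and MAP4K4 (1.11) and FRMD6 (0.85) rose in FaDu ErlR. The medians of these 2 lists lay between -0.14 and 0.30 in the 4 resistant models.

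The changes of genes that lie near these genes on the chromosome are given for the tested genes whose start lies within 1 Mb. Near YAP1, 6 of 14 neighbours fell and 0 rose in FaDu AfaR (edgeR, adjusted p), where 7.49% of all genes fell, with a median of -0.83, beside -0.58 for YAP1 itself. These were MMP7, MMP1, MMP13, MMP10, DCUN1D5 and TMEM123, named after their values were seen. In FaDu ErlR 3 of the 14 fell and 0 rose by edgeR, where 1.6% of all genes fell. The median was -0.37 there, beside 0.17 for YAP1. Near AMOTL2, 6 of 8 neighbours rose and 1 fell in Cal27 ErlR, where 12.3% of all genes rose, with a median of 0.55 beside 0.51 for AMOTL2. In Cal27 AfaR 2 rose and 1 fell, against 19.5% and 18.2% of all genes, with a median of 0.14 beside 0.59. Near WWTR1, 6 of 14 rose and 1 fell in Cal27 AfaR, where 19.5% of all genes rose (median 0.51 beside 0.65), but in the other 3 models between 0 and 2 rose and the median lay between -0.02 and 0.30. Near TEAD1, 2 of 10 rose and 2 fell in FaDu AfaR, against 10.4% and 7.49% of all genes, and 3 rose and 0 fell by edgeR in FaDu ErlR, against 2.58% and 1.6%. The medians were 0.39 and 0.47, beside 0.46 and 0.50 for TEAD1. In Cal27 ErlR, where TEAD1 was not called (0.14), 4 of 10 rose and 0 fell by edgeR, against 12.3% and 15.3%, with a median of 0.38. Near TEAD4, 3 of 13 rose and 2 fell in Cal27 AfaR and the median was -0.07, unlike TEAD4 at -0.90, whereas between the parental lines 8 of 14 were lower, against 26.8% of all genes, and the median was -1.14. Near ANKRD1, 1 of 8 rose and 0 fell in Cal27 ErlR, and the median was 0.18 beside -4.03. Near CCN1, 0 of 12 rose and 3 fell by edgeR in Cal27 AfaR, against 19.5% and 18.2% of all genes. The median was -0.39 there, beside 0.69 for CCN1. The part of chromosomal position in these results was not tested.

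**Figure D5:**
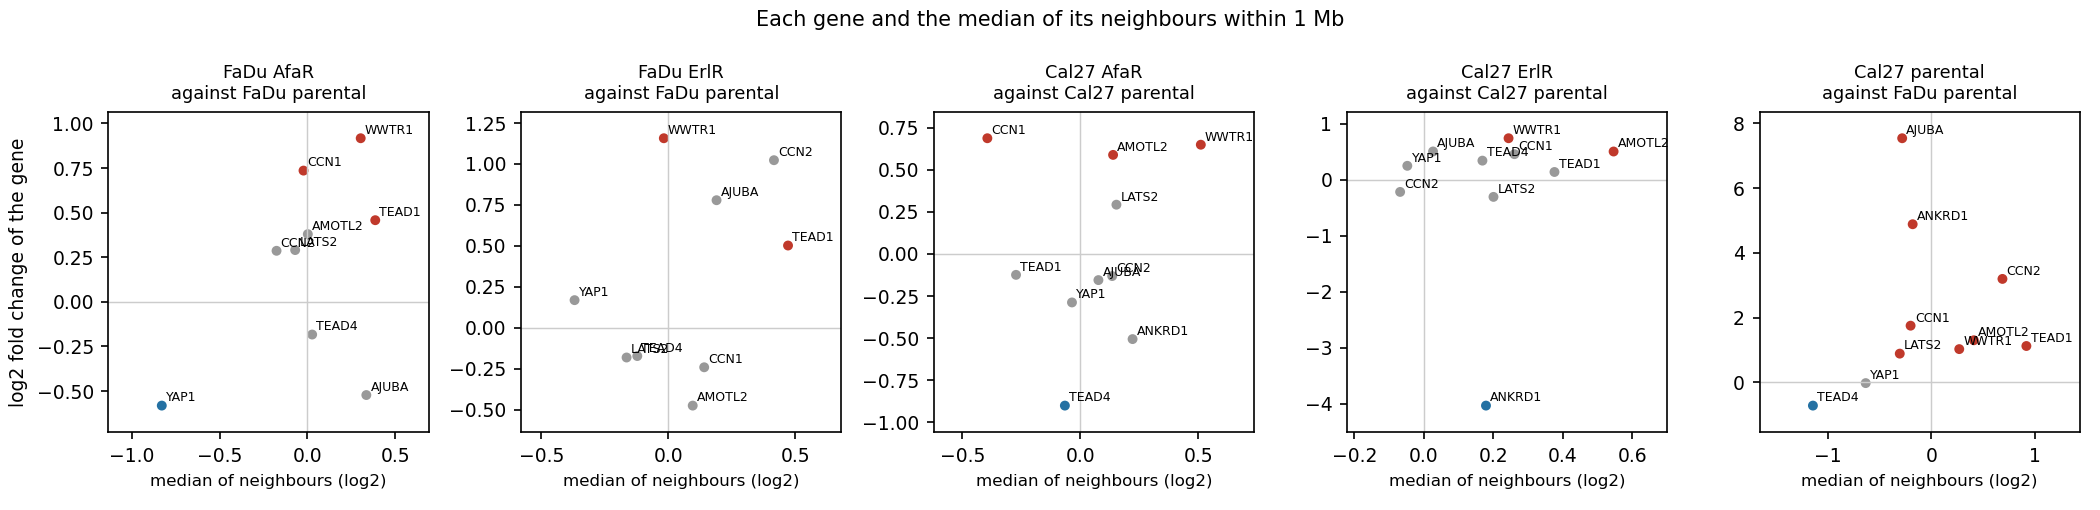
Log2 fold change of each tested gene against the median of its neighbours within 1 Mb, in the 4 comparisons with parental cells and between the parental lines (each panel on its own scale). YAP1 and its neighbours are both low in FaDu AfaR (-0.58 and -0.83), while ANKRD1 in Cal27 ErlR stands apart from a neighbour median of 0.18.

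Across the 12 libraries the closest patterns to each gene were sought among 10551 genes with a symbol and a mean of at least 5 CPM, by the root-mean-square difference of centred log2(CPM + 1). CCN1 and AMOTL2 were among the 3 closest genes of each other, at a difference of 0.23 on the log2 scale, behind KLHL29 (0.22) for CCN1 and CABLES2 (0.19) for AMOTL2. The closest to WWTR1 were ELL2 (0.21), C3orf52 (0.24) and RASSF8 (0.27), and SF3B6 (0.14) and NAP1L4 (0.14) were among the 3 closest to YAP1. AJUBA was closest to MAGEA6 (0.21) and MAGEA3 (0.22), near-identical genes whose reads can be hard to assign. CCN2 had no gene closer than TANC2 (0.37), and ANKRD1 none closer than CLIC4 (0.41). TEAD1 was closest to CCDC90B (0.12), TEAD4 to NUP37 (0.12) and LATS2 to PIGV (0.10). These differences depend on how much a gene varies, and they are a description of these libraries alone.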

How the data were processed

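Poly(A) RNA of 12 libraries, 2 in each of 6 groups taken from the labels, was analysed. By the submitters' processing notes the authors used Trimmomatic 0.36, STAR 2.5.2b and featureCounts of Subread 1.5.2 on GRCh38, and the deposited values are raw, unnormalized counts for each Ensembl gene and ERCC spike-in. Whether counting used strand is not given in the sources used here; antisense and overlapping genes of these loci held at most 27 counts. Deposited normalized tables were not used. The test was that of edgeR 4.0.16 under R 4.3.3 (TMM, filterByExpr, glmQLFit, glmQLFTest, Benjamini-Hochberg over all genes), in 1 fit per line (15092 genes in FaDu, 15269 in Cal27, 3 residual degrees of freedom) and in 1 fit of all 12 libraries (16240 genes, 6 residual degrees of freedom) for contrasts across lines. Levels per kilobase used the exonic length in the files. With 2 libraries per group, an exact permutation test cannot reach 0.05. The p-values measure the spread between replicate cultures of 1 model.

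The genes and lists were chosen with earlier results of these data known. The genes named are the 10 themselves, up to 4 called genes with the largest change per list and comparison, and the 3 nearest patterns per gene; some genes that the rule names are not reported here. Replicates were distinct libraries (chi-square per degree of freedom from 12.7 to 26.7). Alternatives were DESeq2 1.42.0, RLE and ERCC scaling, no filter, at least 10 counts in every library, other libraries in the fit, a replicate block, other call rules and leaving out each library. Promoters were read from RefSeq on GRCh38.p14.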

Additional observations from a re-analysis of the deposited data

Results flagged for a closer look

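In 4 cases an interaction term between resistance and line was called in edgeR's fit of the 12 libraries. For TEAD1 the AfaR effect was 0.60 larger in FaDu than in Cal27 on the log2 scale (standard error 0.16, adjusted p = 0.0204), with both FaDu AfaR libraries above both FaDu parental libraries and overlapping groups in Cal27. For TEAD4 the AfaR effect was 0.74 higher in FaDu (standard error 0.22, adjusted p = 0.0339), since TEAD4 fell by 0.90 in Cal27 AfaR and was at -0.18 in FaDu AfaR. For ANKRD1 the ErlR term, FaDu minus Cal27, was 4.21 (standard error 0.98, adjusted p = 0.0114 by edgeR). The FaDu side rests on 3 to 9 reads per library. ANKRD1 passed the count filter of this fit through Cal27 alone, so the term cannot show how FaDu responded. For AMOTL2 the ErlR effect was -0.997 in FaDu relative to Cal27 (standard error 0.18, adjusted p = 0.00353), and it was -0.51 (adjusted p = 0.136) with ERCC scaling. With 1 library left out, the values ranged from 0.54 to 0.68 for TEAD1, from 0.53 to 0.93 for TEAD4, from 3.66 to 4.98 for ANKRD1 and from -1.12 to -0.88 for AMOTL2. TEAD1 lost its call in 5 of these fits, TEAD4 in 5 and ANKRD1 in 1 (without FaDu ErlR replicate 1), and AMOTL2 kept its call in each. In groups of 2 libraries no test for an outlying library was possible.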

How the results depend on the processing

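With a further limit of 1 on the size of the log2 fold change, the number of the 10 genes called fell from 4 to 0 in FaDu AfaR, 2 to 1 in FaDu ErlR, 4 to 0 in Cal27 AfaR, 3 to 1 in Cal27 ErlR, 4 to 1 and 5 to 2 between AfaR and ErlR in FaDu and Cal27, and 2 to 0 and 2 to 1 for the AfaR and ErlR differences between lines. At an unadjusted p under 0.05 it was 4 in FaDu ErlR, 6 in Cal27 ErlR and 6 for the ErlR difference between lines (21.2%, 40.2% and 33.1% of all genes). In FaDu ErlR it was 4 with DESeq2, 5 with ERCC scaling and 4 with no filter. Among all genes there, 676 rose and 443 fell with DESeq2 and 5655 and 92 with ERCC scaling, against 389 and 242. With no filter 1007 rose and 721 fell, of 28701 tested. In Cal27 ErlR 5 of the 10 genes were called with DESeq2, with no filter and with other libraries in the fit. Among all genes, 1965 rose and 2203 fell with DESeq2 and 2188 and 2724 with no filter, against 1884 and 2331. Other libraries in the fit gave 2323 and 2386. The ErlR difference between lines gave 4 of the 10 genes with ERCC scaling and with no filter and 1 with at least 10 counts in every library. Among all genes these settings gave, in that order, 3765 higher and 283 lower, 1957 and 1573, and 1458 and 1287, against 1592 and 1429. With 1 library left out, which leaves 1 library in a group, fewer of all genes tested were called in every comparison. Calls lost among the 10 genes in those fits, given above gene by gene, stand beside that general loss. The calls between the parental lines were kept.

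The replicate numbers share only a number, since deviations of same-numbered libraries correlated between -0.25 and 0.16. With a replicate block, FaDu ErlR gave 0 of the 10 genes, with WWTR1 at 1.11 and TEAD1 at 0.50, and the AfaR difference between lines gave 1. Among all genes the block gave 273 higher and 165 lower in FaDu ErlR, against 389 and 242. For the AfaR difference between lines it gave 1493 and 1077, against 1713 and 1300. ERCC scaling moved the median of all genes tested to 0.18 in FaDu AfaR, 0.49 in FaDu ErlR and 0.62 between the parental lines, and among all genes the split was 5655 higher to 92 lower in FaDu ErlR against 389 to 242. It turned TEAD4 (0.32), CCN1 (0.26), AMOTL2 (0.022) and LATS2 (0.31) positive in FaDu ErlR, all below that median, and YAP1 between the parental lines (0.56). That YAP1 value was 0.0060 with at least 10 counts in every library, 0.058 with the replicate block and -0.090 to 0.019 with 1 library left out. Leaving out 1 library also moved values across 0 that were not called with every library, CCN2 from -0.22 to 1.03 in FaDu AfaR, from -0.37 to 0.089 in Cal27 AfaR and from -0.79 (called) to 0.22 in Cal27 ErlR, and AJUBA from -0.38 to 0.12 in Cal27 AfaR. Of 220 recounts of the pathway lists, chosen after the data were seen, 171 stayed within 1.5 times. In settings that keep every library, the count of signature targets ranged from 2 to 10 in FaDu ErlR, against 3. The number called among all genes moved with the setting too. With 1 library left out, calls of signature targets were lost in FaDu AfaR, where fewer of all genes were called as well. The causes were not tested.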
